A study of Mus musculus with 4 samples.

Results

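The levels of 9 genes were followed through 4 single cell libraries of mouse brain tumors: P2ry12, Tmem119, Cx3cr1, Sall1, Csf1r, C1qa, C1qb, C1qc and C3. They were chosen by name, as genes of resting microglia and of the complement system, are called the members here, and all 9 were among the 21861 features of every library. Each library came from 1 mouse of the genotype hGFAP-cre::TP53Fl/Fl::lsl-MYCN, in which Cre recombinase under the human GFAP promoter removes p53 and switches on human MYCN, together with a firefly luciferase reporter, in radial glia and their progeny. Mouse 4 and mouse 5 were 43 days old (P43), mouse 6 and mouse 7 were 70 days old (P70), and all 4 carried the same alleles, so no tumor-free brain and no wild-type genotype was part of the comparison. Myeloid cells do not descend from radial glia and belong to the tumor microenvironment (TME). The comparisons asked in which cells of the tumor the members were found and whether their levels in Myeloid cells differed between P43 and P70.

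After filtering, 10975 cells remained, between 1456 and 3469 per mouse, with a median of 1419 to 10449 UMIs (unique molecular identifiers, each counting 1 captured RNA molecule) per cell. Mouse 4 was the shallowest library and mouse 7 the deepest, so depth differed within each age. No pair of libraries shared more than 3 cell barcodes among kept cells, and none was shared among Myeloid cells. In cells outside the tumor clusters, genes of the Y chromosome reached 218 CPM (UMIs of a gene, scaled to a total of 1000000) in mouse 4, labelled female, and 0.568 CPM in mouse 5, labelled male, while mouse 6 (186 CPM) and mouse 7 (0 CPM) matched their labels. These libraries of mouse 4 and mouse 5 thus went against their sex labels, and since both were labelled P43 the grouping by age was kept as labelled. The luciferase and MYCN reporter together stood at 800 to 3118 CPM in the OL-like tumor cells and at 9.62 to 57.8 CPM in Myeloid cells of the 4 mice. Trp53 was at 27.4 to 67.7 CPM in OL-like cells and at 59.7 to 93.5 CPM in Myeloid cells, which does not check the deletion, since 3′ counts need not cover the deleted part.

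Microglia are the resident macrophages of the brain. P2ry12, a receptor for ADP, Tmem119, a surface protein, and the transcription factor Sall1 mark them in the resting state, while Cx3cr1, the fractalkine receptor, and Csf1r, the receptor for CSF1 and IL-34 on which macrophages depend, are shared with monocytes and other macrophages. C1qa, C1qb and C1qc encode the 3 chains of C1q, which recognises its target and starts the classical complement cascade, and C3 is the protein on which all complement pathways meet. Macrophages as a whole can make C1q, and neutrophils and glia can also make C3.

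The 3 C1q genes lie next to each other on the minus strand of chromosome 4 (mm10, GENCODE vM21), C1qb at 136880129 to 136886187, C1qc at 136889804 to 136893065 and C1qa at 136895917 to 136898803, so that the whole locus spans 18675 bases. P2ry12 lies on chromosome 3 (59216272 to 59262871) inside Med12l of the other strand, Tmem119 on chromosome 5 (113793729 to 113800516) and C3 on chromosome 17 (57203970 to 57228136). The annotated span of Cx3cr1 on chromosome 9 (119901616 to 120069879) overlaps Gorasp1, Csrnp1 and Xirp1 on its own strand, and the part of such reads in its counts was not tested. RefSeq promoters were matched by symbol for 6 of the 9 members. Those of C1qb and C1qc are shown because these genes varied together across the cell classes, and that of C3 because its distribution over Myeloid cells differed from theirs. Each is the 250 bases before the start annotated in RefSeq and the first 30 after it, on the gene's strand (GRCm38.p6, chr4:136886171-136886450, chr4:136892885-136893164 and chr17:57228107-57228386). For C1qb and C1qc this start is not that of the GENCODE span above, and for C1qc it lies inside that span. Capitals mark AGGAAGT on either strand (ACTTCCT as printed), letters found within the motif of the myeloid transcription factor PU.1, in C1qb and C1qc and TATAAA in C3.
C1qb: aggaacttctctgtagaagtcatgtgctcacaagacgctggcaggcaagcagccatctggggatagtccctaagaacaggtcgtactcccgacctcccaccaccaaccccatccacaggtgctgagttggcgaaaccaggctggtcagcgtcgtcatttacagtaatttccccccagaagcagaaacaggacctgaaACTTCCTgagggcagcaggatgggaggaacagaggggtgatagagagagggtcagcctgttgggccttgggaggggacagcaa
C1qc: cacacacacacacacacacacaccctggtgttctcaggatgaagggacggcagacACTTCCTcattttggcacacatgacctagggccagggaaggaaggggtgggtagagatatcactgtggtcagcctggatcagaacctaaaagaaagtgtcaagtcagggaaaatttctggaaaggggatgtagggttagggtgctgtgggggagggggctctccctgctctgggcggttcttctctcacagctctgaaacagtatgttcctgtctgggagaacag
C3: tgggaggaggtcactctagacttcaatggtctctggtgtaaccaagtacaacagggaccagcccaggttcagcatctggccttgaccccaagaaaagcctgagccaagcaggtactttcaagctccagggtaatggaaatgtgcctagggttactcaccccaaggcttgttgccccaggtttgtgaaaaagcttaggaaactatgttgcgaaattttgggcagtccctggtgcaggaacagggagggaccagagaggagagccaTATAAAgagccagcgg
AGGAAGT occurred once in each of the C1q windows, was also present in the windows of P2ry12 and Sall1, and occurred on either strand in 8.65% of the 32851 RefSeq windows of this length. It was absent from the letters of the C3 window, which held TATAAA at bases 265 to 270. These bases lie within the 30 after the annotated start, not before it. TATAAA was found on either strand in 13.1% of windows. Among the 6 windows, the longer form GAGGAAGT was found in C1qc alone, over the same match, and in 2.82% of all windows. The shorter GAGGAA, which overlaps it, was found in C1qb and C1qc and in 26.0% of all windows. A match describes the letters and does not show binding.

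The Myeloid class was 1 cluster of 1065 cells, 52 and 67 cells in mouse 4 and mouse 5 and 804 and 142 in mouse 6 and mouse 7. It was named without the members, which were also left out of the clustering, from 12 other genes (among them Tyrobp, Fcer1g, Lyz2 and Cd68), all 12 of which were raised in it. Whether these cells were homeostatic microglia was checked against 10 further microglia genes. Their summed level in Myeloid cells was 2218 and 1051 CPM at P43 and 747 and 1356 CPM at P70. Slc2a5 was without a UMI there in 3 of 4 mice. The same 10 genes summed to 4160 to 5492 CPM in endothelial cells, where Sparc alone gave 4085 to 5455 CPM. In dendritic cells they summed to 522 to 1001 CPM, above Myeloid cells in mouse 6 and below them in the other mice. Siglech, which is also on the list that named dendritic cells, gave 67.0 to 383 CPM there, and Selplg 227 to 422 CPM. The sum alone therefore does not set Myeloid cells apart. Over Myeloid cells, 9 monocyte genes summed to 2559 to 6321 CPM and 7 genes of lipid-associated macrophages to 10147 to 40943 CPM. Single genes carried much of these sums. Apoe alone gave 9849, 10970, 16392 and 38213 CPM of the last in mouse 4, 5, 6 and 7, so the other lipid-associated genes were below the microglia genes at P43. A subcluster led by Retnla raised 4 of the 10 microglia genes (Gpr34, Fcrls, Siglech and Sparc) but 6 of 9 border macrophage genes, and took its name from the latter, which also had more genes among its 10 leading ones. In it, 1 cell of mouse 4, described below, gave 23 of 33 Sparc, 19 of 39 Siglech, 8 of 21 Gpr34 and 10 of 106 Fcrls UMIs. The subcluster also raised 3 genes of the dendritic cell list (Cd209a, Fscn1 and Siglech), the monocyte gene Ccr2 and the lipid-associated gene Lpl. No subcluster was named microglia-like, and the class is called Myeloid here.

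Resting-microglia genes were scarce. P2ry12 stood at 120, 30.5, 24.2 and 39.4 CPM in the Myeloid cells of mouse 4, 5, 6 and 7, from 25, 16, 109 and 15 UMIs. Mouse 4 was highest and the other 3 lay close together, so the ages overlapped. In mouse 4, 17 of the 25 UMIs came from 1 cell, and without that cell the level was 39.5 CPM. This cell (5228 UMIs, singled out after its values were seen) also held 4 UMIs of Tmem119, 2 of Sall1, 23 of Sparc, 19 of Siglech and 10 of Fcrls, and none of the 9 border macrophage genes. Its profile thus carried 3 resting-microglia members together.

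Tmem119 stood at 28.9 and 26.7 CPM in mouse 4 and 5 and at 59.4 and 126 CPM in mouse 6 and 7, from 6, 14, 268 and 48 UMIs. Both P70 mice lay above both P43 mice. Non-overlap of the ages was common in this class, holding for 43.3% of the 5545 genes tested (17.1% higher and 26.2% lower at P70). The level rose by 1.74 on the log2 scale (SE 0.50), but its adjusted p of 0.221 did not pass the threshold of 0.05. Without mouse 6, which left 1 mouse at P70, the change was 2.27. With no filter on low counts it was 1.79 and passed by the same edgeR test (adjusted p = 0.00531), in a setting where more genes of this class passed than in the main test.

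Sall1, on chromosome 8 (89027235 to 89044162), had few UMIs in Myeloid cells, with 4, 3, 6 and 0 (19.2, 5.72, 1.33 and 0 CPM), and 3 UMIs would have made 7.88 CPM in mouse 7. At most 8.22% of its UMIs in any mouse lay in Myeloid cells, a share that also follows the size of the class. Per UMI, its level in Myeloid cells was 1.04 times that of all other cells in mouse 4 (interval 0.280 to 2.69), 0.325 times in mouse 5 and 0.225 times in mouse 6, and it was at least 2.27-fold lower in mouse 7. The level was thus below that of other cells in 3 of 4 mice. MOL (mature oligodendrocytes) held 50.6 to 64.8 CPM in the 3 mice with at least 20 such cells, and the reporter-positive OL-like tumor cells 10.9 to 23.0 CPM. Mural cells held 37.8, 26.0, 13.9 and 0 CPM, and in mouse 7 a count of 0 allowed 32.4 CPM. This limit is above the level of mouse 5, so mouse 7 cannot be placed below the P43 mice. The fitted change of P70 over P43 was -1.10 on the log2 scale (SE 0.50) and did not pass (adjusted p = 0.155), in a class where 18.9% of 8528 genes did. In Myeloid cells Sall1 fell under the filter for the age test.

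Cx3cr1 and Csf1r were more abundant and steadier. Cx3cr1 stood at 727 and 397 CPM at P43 and at 339 and 420 CPM at P70, so that mouse 4 was high and the others lay close together. Csf1r, on chromosome 18 (61100598 to 61132149), ran from 775 and 650 CPM at P43 to 647 and 562 CPM at P70. The P70 values were the lower ones, but mouse 5 and mouse 6 differed by less than their counting error. Csf1r was also found in DC (dendritic cells) at 57.4 to 101 CPM, and Cx3cr1 there at 16.5 to 30.9 CPM. In mouse 5, 34 of 77 DC held a UMI of Csf1r.

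**Figure D1:**
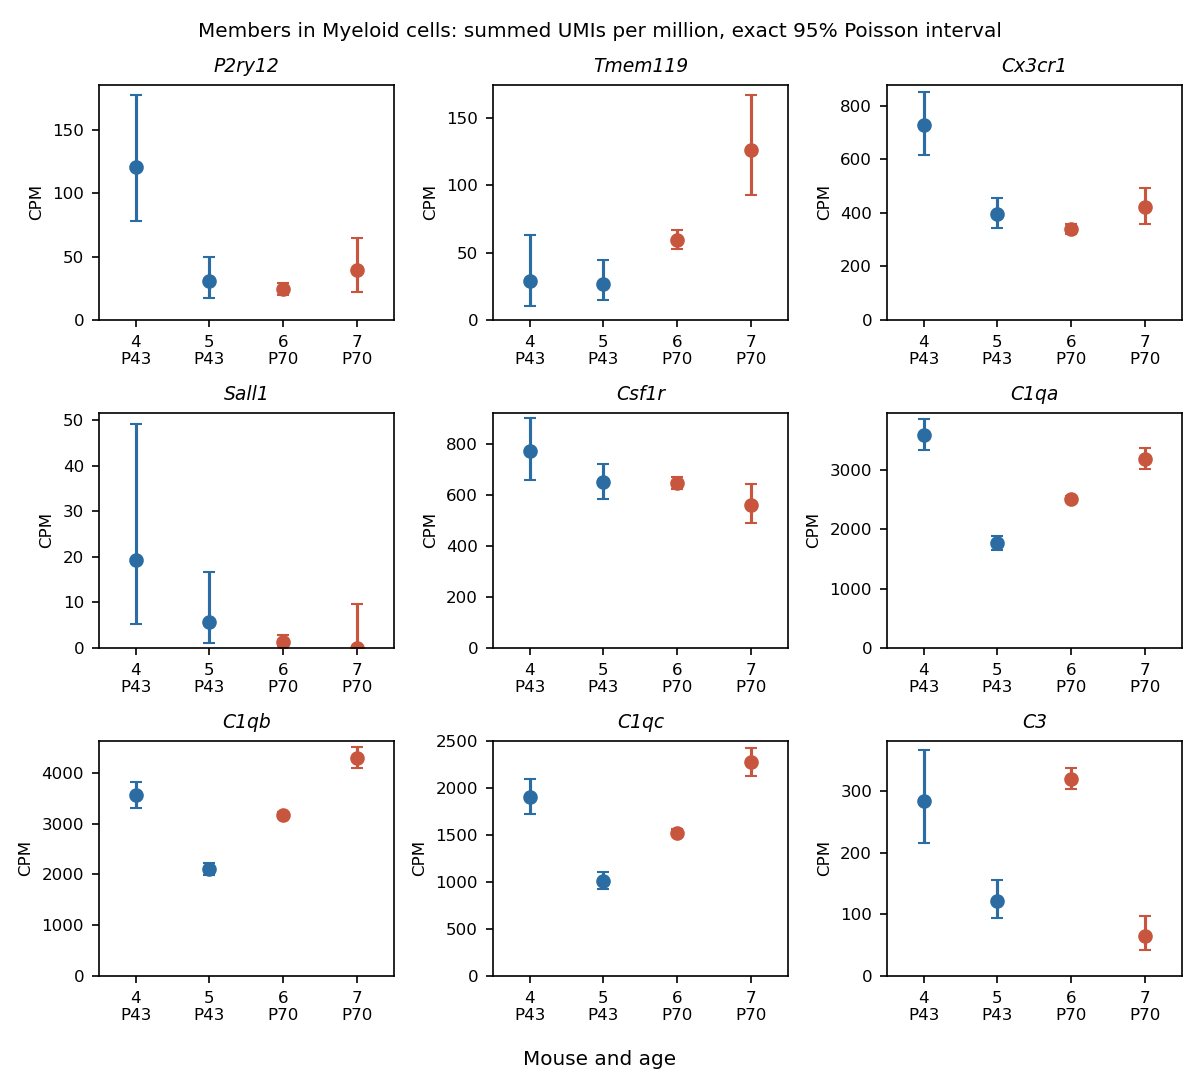
CPM (summed UMIs of the gene, scaled to a class total of 1000000) of each member in the Myeloid cells of mouse 4, 5, 6 and 7, blue for P43 and red for P70, with exact 95% Poisson intervals that cover counting error only. Tmem119 is higher in both P70 mice, at 59.4 and 126 CPM against 28.9 and 26.7 CPM, while for C1qa, C1qb, C1qc and C3 the ages overlap.

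The C1q chains were the most abundant members. C1qa stood at 3589, 1766, 2513 and 3190 CPM in mouse 4, 5, 6 and 7, C1qb at 3560, 2102, 3176 and 4294 CPM, and C1qc at 1905, 1015, 1526 and 2276 CPM. For all 3 chains mouse 5 was lowest, while mouse 4 was highest for C1qa and lay between both P70 mice for C1qb and C1qc, so no chain separated the ages. Between 88.4% and 98.4% of the UMIs of any C1q chain in a mouse were in Myeloid cells. The level of C1qa in Myeloid cells was 760, 1007, 45.1 and 1735 times that in all other cells of mouse 4, 5, 6 and 7. Mouse 6, where 29.4% of cells were Myeloid, was the low one, and its other cells held 55.8 CPM of C1qa against 1.75 to 4.72 CPM in the other mice.

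C3 varied most between mice among the abundant members. It stood at 284 and 122 CPM in mouse 4 and 5 and at 320 and 65.7 CPM in mouse 6 and 7, so each age had a high and a low mouse. Myeloid cells held 66.0% to 78.6% of the C3 UMIs of a mouse. Neutrophils of mouse 5 (419 CPM, 23 UMIs from 8 cells) and mouse 6 (400 CPM, 207 UMIs from 100 cells) had a higher level than the Myeloid cells of these mice. Those of mouse 4 held 2 UMIs and those of mouse 7 none, from 21 and 4 cells. In EC (endothelial cells), mural cells and OL-like tumor cells C3 did not exceed 4.42 CPM.

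**Figure D2:**
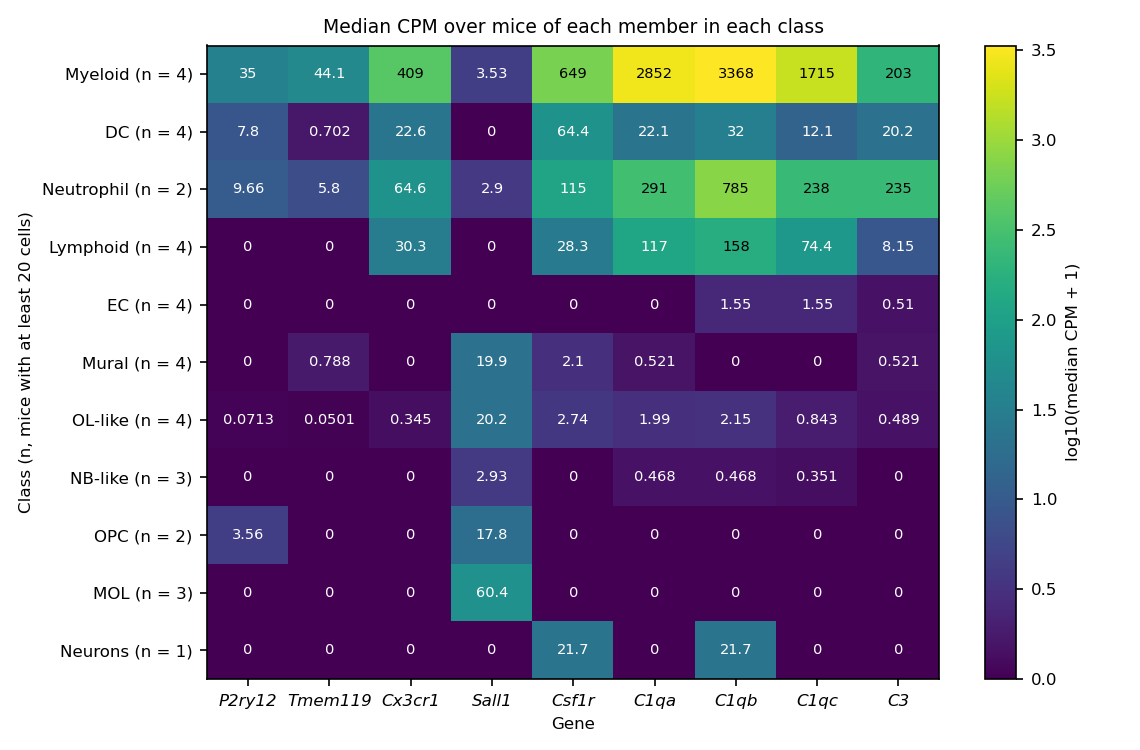
Median CPM over mice for each member (columns) in each cell class (rows, with the number of mice that had at least 20 cells of it), coloured by log10(median CPM + 1). The C1q chains reach 1715 to 3368 CPM in Myeloid cells, and Sall1 is highest in MOL at 60.4 CPM.

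Low C1q readings outside Myeloid cells need a background. With every cell thinned to 2000 UMIs, any C1q chain was seen in 54.3% (19 of 35), 56.9% (37 of 65), 60.0% (458 of 763) and 76.1% (67 of 88) of the Myeloid cells of mouse 4, 5, 6 and 7. Cells of types that lack C1q gave 0.631%, 0%, 8.61% and 0.374% in OL-like tumor cells and 0%, 0.504%, 8.78% and 0% in EC, although only 11 EC of mouse 7 were deep enough and 0 of 11 allows up to 27.3%. The 0 of 243 OL-like cells of mouse 5 allows 1.23% and the 0 of 200 EC of mouse 4 allows 1.5%. DC gave 0% (0 of 28, which allows 10.7%), 5.71%, 3.48% and 3.85%. The DC share was below that of EC and OL-like cells in mouse 6 and above it in mouse 5, where it rests on 4 of 70 cells. In mouse 7 it was above that of OL-like cells, from 2 of 52 cells, and cannot be placed against the 11 EC. The part of free RNA in these readings was not tested. Neutrophils of mouse 6 gave 34.5% (20 of 58), above the shares of EC and OL-like cells of that mouse. The Neutrophil cluster raised all 8 neutrophil genes but also 9 of the 12 Myeloid genes, and in mouse 6 it held 126 CPM of Csf1r, against 647 CPM in Myeloid cells. The part of Myeloid RNA or cells in this share was not tested. Before thinning, median depth was 4397, 7662, 5378 and 2322 UMIs in Myeloid cells and 1354, 21553, 4742 and 12007 UMIs in OL-like cells of mouse 4 to 7, and 17, 2, 41 and 54 Myeloid cells were too shallow to be thinned.

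Per cell, the resting-microglia members were rarer still. At 2000 UMIs, P2ry12 was seen in 8.57%, 6.15%, 4.46% and 5.68% of Myeloid cells, Tmem119 in 5.71%, 3.08%, 7.86% and 22.7%, and Sall1 in 1 cell each of mouse 4, 5 and 6 and in 0 of 88 cells of mouse 7, which allows 3.41%. At least 2 of these 3 genes were seen together in 1, 1, 4 and 2 cells. Without thinning they met in 3 of 52, 3 of 67, 22 of 804 and 5 of 142 Myeloid cells. The mean share with Tmem119 was 10.9 percentage points higher at P70 (exact permutation test, two-sided p = 0.333), which is the smallest p that 2 mice against 2 can give. No share could therefore pass, and the shares with C3 gave p = 1 by the same exact test with a difference of 7.31 points.

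With edgeR's quasi-likelihood test on sums per mouse, none of the 8 members tested in Myeloid cells differed between P70 and P43 at an adjusted p under 0.05, where 0.307% of 5545 genes did (17 genes, 8 or 0.144% higher and 9 or 0.162% lower at P70). At an unadjusted p under 0.05, Tmem119 was the one member among 659 genes, and DESeq2 called none of the members among its 86 genes (1.55%). The changes were 0.18 (SE 0.33) for C1qa, 0.49 (SE 0.29) for C1qb, 0.48 (SE 0.34) for C1qc and 0.11 (SE 0.68) for C3 on the log2 scale, with adjusted p of 0.586 to 0.998. P2ry12 changed by -1.12 (SE 0.64, adjusted p = 0.577), Cx3cr1 by -0.47 (SE 0.34, adjusted p = 0.679) and Csf1r by -0.15 (SE 0.23, adjusted p = 0.899). The median over the 8 members was 0.15 and that over all genes tested 0.02. Changes depended on single mice, and leaving 1 out left 1 mouse at an age. Without mouse 6, C1qb changed by 0.70, C1qc by 0.75 and C3, in the other direction, by -1.45. P2ry12 changed by -1.94 without mouse 5 and by -1.29 without mouse 7. Its change without mouse 4, the mouse with the P2ry12-rich cell, was 0.03.

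**Figure D3:**
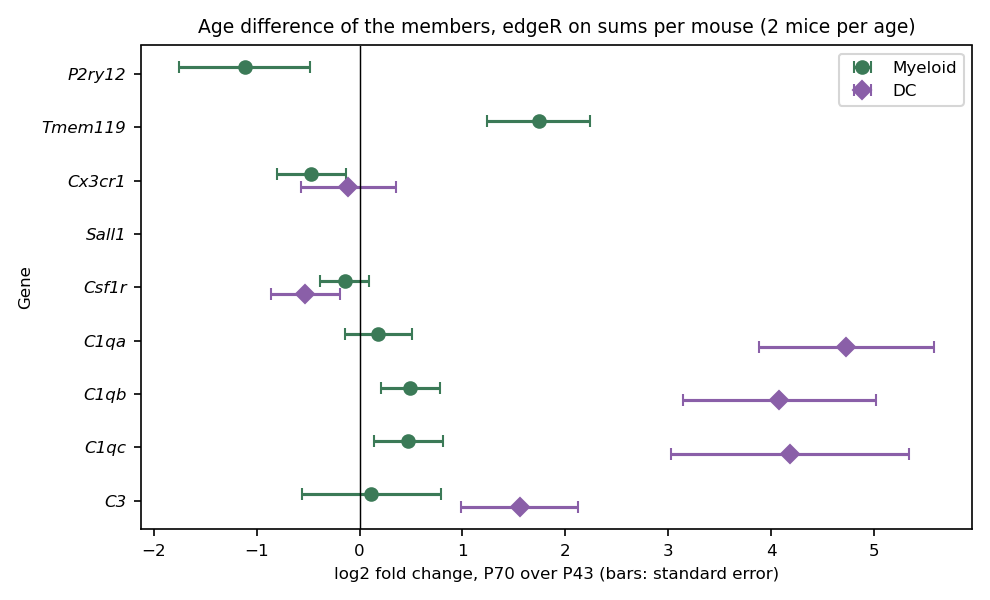
Log2 fold change of P70 over P43 (horizontal axis) with its standard error for the members tested in Myeloid cells (green circles) and DC (purple diamonds), from 2 mice per age. C1qa lies at 0.18 in Myeloid cells and at 4.73 in DC, and Sall1 was tested in neither.

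Some of the 17 genes that passed in Myeloid cells, named here after their values were seen, are markers of macrophage types. Retnla (-12.99), Mgl2 (-8.28), Cd163 (-6.82) and Mrc1 (-4.39), which mark macrophages at the borders of the brain and alternatively activated macrophages, fell at P70, and Gpnmb (5.82) and Thbs1 (4.36) rose (log2 fold changes). Ms4a7, which is on the border macrophage list with Cd163 and Mrc1, moved the other way and rose by 3.02. Mgl2 is not on that list and was also among the 10 leading genes of the DC cluster led by Cd209a. Retnla was at 823 and 689 CPM at P43 and without a UMI at P70. The 9 border macrophage genes summed to 1458 and 851 CPM at P43 and to 822 and 888 CPM at P70. Ms4a7 gave 48.1 and 111 CPM of this at P43 and 617 and 665 CPM at P70, so the other 8 genes together were lower in both P70 mice. Lyve1, Cd163 and Cbr2 were at 0 in mouse 7 and Lyve1 in mouse 6. The part that the mix of macrophage types played in the levels of the members was not tested.

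Outside Myeloid cells, 1 member passed the age test. C1qa in DC was at 0 and 2.81 CPM at P43 and at 41.4 and 100 CPM at P70, and rose by 4.73 on the log2 scale (SE 0.85, adjusted p = 0.0406), in a class where 1.13% of 5649 genes passed (0.655% higher at P70). DESeq2, which called 1.03% of the genes, gave 5.07 (adjusted p = 0.0129). The UMIs behind it were few and uneven, with none from mouse 4 and 2 from mouse 5. Mouse 6 gave 124 from 20 of 488 cells, and mouse 7 gave 21 from 2 of 70 cells, of which 1 cell held 20. C1qb (4.08, SE 0.93, adjusted p = 0.0850) and C1qc (4.18, SE 1.16, adjusted p = 0.152) lay on the same side without passing, and in mouse 7 1 cell held 42 of 49 C1qb UMIs and 1 cell 18 of 19 C1qc UMIs. The share of DC with C1q lay below that of EC and OL-like cells in mouse 6 and above it in mouse 5. In mouse 7 it lay above that of OL-like cells, and too few EC were deep enough there for a comparison. With 1 mouse left out, which left 1 mouse at an age, the C1qb change ran from 2.91 to 10.18. The difference of the C1qa change between Myeloid cells and DC was -4.26 (SE 0.64, adjusted p = 0.0116, edgeR with mouse as a block), where 0.467% of 6427 genes passed, but not with DESeq2 (-4.61, adjusted p = 0.346). In Lymphoid cells 0% of genes were called by edgeR (581 of 5784 at an unadjusted p under 0.05, 17 by DESeq2). The C1q counts there came from 1 shallow cluster (median 839 UMIs) with 500 CPM of C1qa, against 2.90 CPM in the other. That shallow cluster was named from 4 lymphoid genes among its 10 leading ones, but raised 10 of 12 Myeloid and 5 of 14 lymphoid genes. It also held 333 CPM of Csf1r and 219 CPM of Cx3cr1, so its C1q cannot be assigned to lymphoid cells. In OL-like cells no gene was called either (738 of 11756 at an unadjusted p under 0.05, 96 by DESeq2).

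Re-clustered without the members, Myeloid cells fell into 5 subclusters, described here by their leading genes. The Spp1-led subcluster (511 cells) raised 4 of 7 lipid-associated macrophage genes and is lipid-associated macrophage-like, and the Retnla-led one (42 cells) raised 6 of 9 border macrophage genes and is border macrophage-like. Those led by Ccl24 (256 cells) and Cxcl10 (176 cells, with the interferon-induced genes Rsad2 and Ifit1) stayed unnamed. The subcluster led by S100a9 (80 cells) raised 7 of 8 neutrophil and 6 of 9 monocyte genes. It met the rule for neutrophil-like cells, but since it also carried Csf1r and monocyte genes it is called by its leading gene. Its cells were 28.8% and 23.9% of Myeloid cells in mouse 4 and 5 and 5.72% and 2.11% in mouse 6 and 7. By number, 46 of the 80 were from mouse 6, the 1 mouse in which all 8 neutrophil genes had a UMI in Myeloid cells. In mouse 4 and mouse 5 4 of the 8 had UMIs there, with Retnlg, Camp and Ltf at 0 in both. In mouse 7, with 3 such cells, 2 of the 8 had UMIs, and S100a8 and S100a9 had none. Mouse 6 gave 238 of the 256 and 173 of the 176 cells of the unnamed Ccl24-led and Cxcl10-led subclusters, so their values are mainly those of that library. The Retnla-led cells were 28.8% and 40.3% of Myeloid cells at P43 and 0% in both P70 mice, which allows up to 0.373% in mouse 6 and 2.11% in mouse 7 by counting alone. At a resolution of 0.6 the Retnla-led subcluster held 15, 35, 8 and 0 cells of mouse 4, 5, 6 and 7, so the absence from mouse 6 depended on the resolution. The Spp1-led cells were 28.8%, 34.3%, 43.2% and 88.7% of Myeloid cells in mouse 4, 5, 6 and 7.

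C1q and C3 followed different orders over these subclusters. C1qa ran from 3762 CPM in Spp1-led cells over 2950 in Retnla-led and 2058 in Ccl24-led cells to 190 CPM in Cxcl10-led cells and 0 UMIs in S100a9-led cells, at least 498 times below the highest. C1qb and C1qc kept this order, with 1 and 0 UMIs in S100a9-led cells. These values pool mice. Within mouse 5, 6 and 7 C1qa was also highest in Spp1-led cells (2985, 3895 and 3319 CPM), but in mouse 4 it was 6275 CPM in Retnla-led, 3894 in Ccl24-led and 2634 in Spp1-led cells, and S100a9-led cells had no C1qa UMI in any mouse. C3 was highest in Ccl24-led cells (542 CPM), followed by Cxcl10-led (408 CPM), S100a9-led (340 CPM), Spp1-led (154 CPM) and Retnla-led cells (18.7 CPM). Csf1r ran from 541 to 819 CPM and Cx3cr1 from 226 to 566 CPM over the pooled subclusters. Within mouse 4 Csf1r ran wider, from 245 CPM in Ccl24-led to 1385 CPM in Retnla-led cells. P2ry12, pooled over mice, was highest in Retnla-led cells (103 CPM) and had no UMI in S100a9-led cells, while Tmem119 was highest in Spp1-led cells (87.5 CPM). Of the 33 P2ry12 UMIs in Retnla-led cells mouse 4 gave 24, and 17 of these came from its 1 P2ry12-rich cell. In mouse 5, the other mouse with Retnla-led cells, P2ry12 was 38.4 CPM there and 40.1 CPM in Spp1-led cells (9 and 7 UMIs). Within mouse 6 alone C3 was 536 CPM in Ccl24-led, 405 in Cxcl10-led, 317 in S100a9-led and 179 in Spp1-led cells. Within mouse 5 it was 456 CPM in S100a9-led, 63.0 in Spp1-led and 17.1 in Retnla-led cells.

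**Figure D4:**
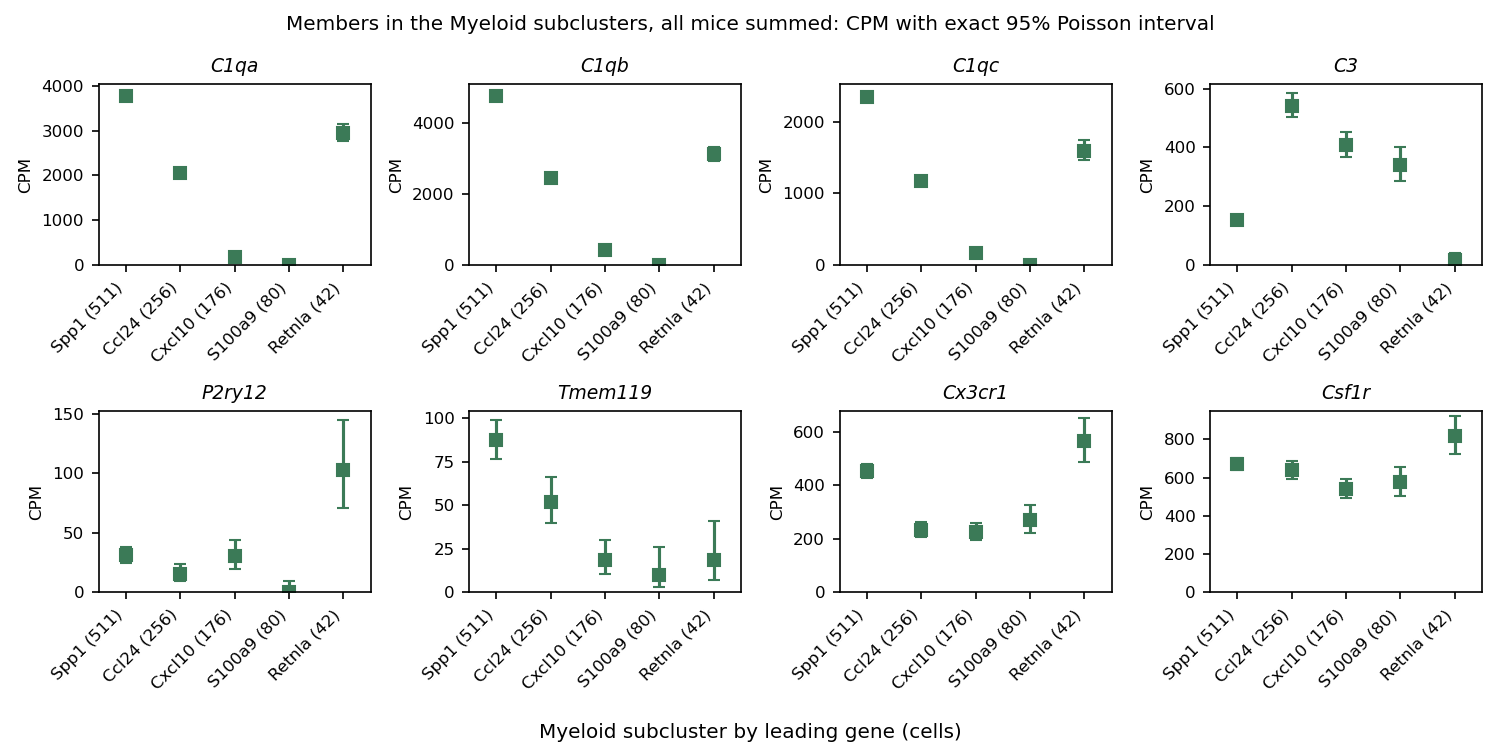
CPM of 8 members in the 5 Myeloid subclusters named by their leading gene (cell numbers in brackets), all mice summed, with exact 95% Poisson intervals. Summed over mice, C1qa is highest in Spp1-led cells (3762 CPM), which does not hold in mouse 4, and it is without a UMI in S100a9-led cells, where C3 stands at 340 CPM.

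C3 and C1q were also set side by side within cells. At 2000 UMIs, C3 was seen in 4 of 19, 1 of 37, 173 of 458 and 4 of 67 Myeloid cells that held a C1q chain, and in 5 of 16, 7 of 28, 142 of 305 and 6 of 21 of those that held none, in mouse 4, 5, 6 and 7. The share was higher without C1q in each of the 4 mice, at 31.2%, 25%, 46.6% and 28.6% against 21.1%, 2.70%, 37.8% and 5.97%. The exact intervals of both shares overlapped in all 4 mice, most widely in mouse 4 (11.0% to 58.7% against 6.05% to 45.6%). Cells of 1 mouse are not replicates, and no test was made.

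The proportions of the 3 chains varied little between mice. Of the C1q UMIs of Myeloid cells, C1qa made 35.8% ± 2.92 (SD, n = 4 mice), C1qb 42.6% ± 2.23 and C1qc 21.6% ± 1.17. Counts were taken at the 3′ end of each molecule and were not divided by length. The C1qa share was 39.6% and 36.2% at P43 and 34.8% and 32.7% at P70, and that of mouse 4 (exact interval 37.4% to 41.9%) lay above that of mouse 7 (31.2% to 34.2%) by more than counting error. In all other cells together the means were 34.4% ± 4.21, 45.7% ± 4.85 and 19.9% ± 3.28. In mouse 6, where these other cells held 1805 C1q UMIs, C1qa made 35.0% of them and 34.8% in Myeloid cells. In mouse 4 neutrophils were unlike this, with 29 of 35 C1q UMIs from C1qb and 1 from C1qa.

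**Figure D5:**
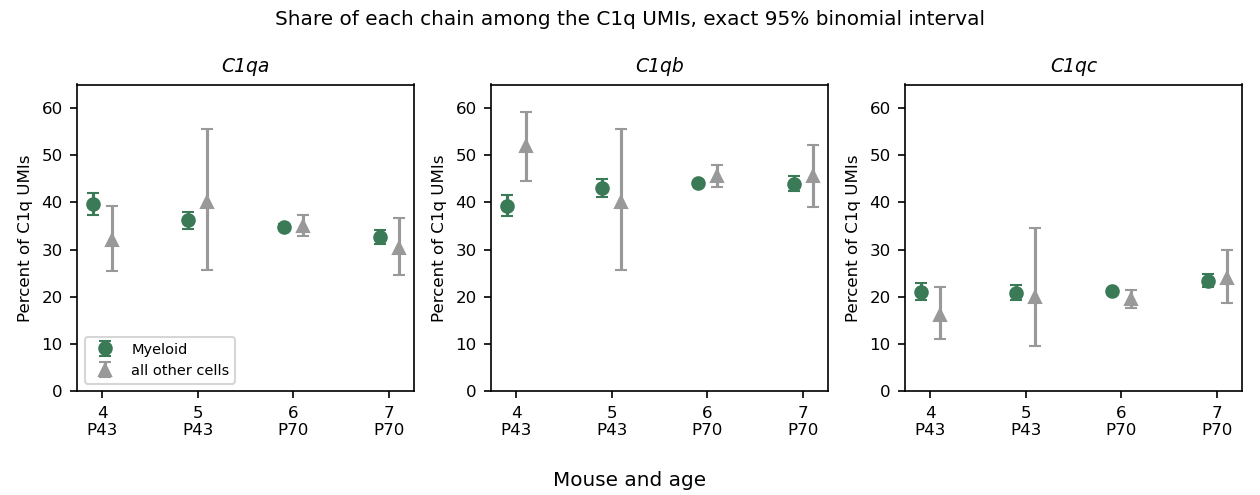
Percent of the C1q UMIs of a mouse that came from C1qa, C1qb and C1qc, in Myeloid cells (green circles) and in all other cells together (grey triangles), with exact 95% binomial intervals. C1qb gives the largest share of Myeloid C1q UMIs in mouse 5, 6 and 7 (43.0% to 44.0%), and in mouse 4 C1qa (39.6%) and C1qb (39.3%) are level.

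Other genes of these pathways were counted in Myeloid cells from lists. Of 15 further genes of homeostatic microglia, 12 were tested and none passed the age test (median change -0.24), where 0.307% of all genes did. Tyrobp, a signalling adaptor, was highest at 2667 ± 422 CPM (SD, n = 4), while Slc2a5 (1.20 ± 2.41) was lowest, followed by P2ry13 (19.2, 5.72, 19.1 and 18.4 CPM in mouse 4, 5, 6 and 7). Fcrls and Gpr34 were picked after their values were seen. Fcrls stood at 212, 164, 5.99 and 155 CPM and Gpr34 at 96.2, 28.6, 1.77 and 42.0 CPM in mouse 4, 5, 6 and 7, so mouse 6, with the most Myeloid cells, was lowest for both. Among 4 ligands that act on microglia, Tgfb1 (307 ± 89.5 CPM) and Csf1 (17.1 ± 10.5 CPM) had UMIs in the Myeloid cells of every mouse, Il34 had UMIs in mouse 6 only, and Cx3cl1, the ligand of Cx3cr1, had none. Il34 was found in mural cells (median over mice 301 CPM), Cx3cl1 in EC (27.7 CPM) and Csf1 in MOL (164 CPM).

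The partners of C1q in the classical pathway were scarce in Myeloid cells. C1ra and C1s1, the proteases that act with C1q, averaged 1.14 ± 1.35 and 0.0554 ± 0.111 CPM, and mural cells held 112 CPM of C1s1 (median over mice). Of 8 proteases and substrates 2 could be tested, Cfp (properdin, 95.9 ± 73.2 CPM) and Cfb (38.7 ± 31.6 CPM), and neither passed, while Cfd and Hc (C5) had no UMI. Of 8 complement receptors 6 were tested and none passed (median change 0.71). Itgb2 (253 ± 76.0 CPM) and Itgam (236 ± 56.6 CPM), the chains of complement receptor 3, were highest, and Vsig4 and Cr2 had no UMI. Of 7 regulators 2 were tested and neither passed. Cr1l was at 56.5 ± 5.85 CPM, and Serping1 and Cfi had no UMI.

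Over 35 sums of class and mouse with at least 20 cells, the members' nearest genes were named by Pearson's r of log2(CPM + 1) among 14168 genes, as a description. The points share libraries and differ in depth. C1qa was most like Ms4a7 (0.94), Acp5 (0.89) and F13a1 (0.88), C1qb like Lyz2 (0.88), Cyp4f18 (0.88) and Ms4a7 (0.88), and C1qc like Ms4a7 (0.91), Lyz2 (0.89) and Fcgr3 (0.88). The chains were more like each other, at 0.96 to 0.98. C3 was most like Klra2 (0.96), Igsf6 (0.96) and Cyp4f18 (0.95), Cx3cr1 like Fcgr3 (0.96), Lilr4b (0.95) and Ms4a6b (0.95), and Csf1r like Pld4 (0.94), Mpeg1 (0.93) and Fcgr3 (0.93). P2ry12 was most like Adgre4 (0.93), Gm9733 (0.92) and Clec5a (0.91), and Tmem119 like Abcc3 (0.92), Gpr84 (0.88) and C3ar1 (0.88), none of which is a resting-microglia gene of the lists. Sall1 stood apart, with Etv1 (0.83), Fut10 (0.79) and Cdh20 (0.78), and with r of -0.40 to -0.02 to the other members.

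Myeloid cells made up 1.57% and 4.60% of kept cells at P43 and 29.4% and 4.09% at P70. Mouse 6 was far above the others and mouse 7 below mouse 5, so the ages overlapped. The mean was 13.7 percentage points higher at P70 (exact permutation test, two-sided p = 0.667), and without mouse 6 the difference was 1.01 points. These are shares of the live cells that were sorted and captured, not of the tumor.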

How the data were processed

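The 4 libraries were made from tumor tissue digested with papain, cryopreserved, sorted for live cells and captured with 10x Genomics 3′ chemistry. The deposited files hold raw counts (UMIs per gene and barcode), which the authors made with Cell Ranger 6.0.2 on mm10, per the submitters' processing notes. No column of normalized values was used. Total counts were 15044263, 13106786, 18698291 and 40621958 UMIs for mouse 4, 5, 6 and 7.

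A cell was kept if it had 200 or more genes, under 25% of mitochondrial counts and no more than 40000 UMIs. This upper limit removed likely doublets, as in the study, and no doublet caller removed further cells. Cells were integrated and clustered with Seurat 5.3.0 (resolution 0.5, 30 components) without the members, tumor clusters were taken as those with over 500 CPM of reporter, and classes were named from lists of other marker genes (2-fold over the remaining cells, at least 3 genes, and where several lists passed, the one with the most genes among the 10 leading ones, of which a subcluster needed at least 1). These rebuilt names may differ from those of the study. Subclusters used 15 components and resolution 0.3. Counts were summed per class and mouse, and P70 was tested against P43 with edgeR 4.0.16 (quasi-likelihood, R 4.3.3) in classes with at least 20 cells in every mouse, with Benjamini-Hochberg adjustment over all genes tested and a threshold of 0.05. DESeq2 1.42.0 was an alternative. The difference between classes was tested with mouse as a block. Levels of Myeloid against other cells carry no test. Shares were compared after thinning to 2000 UMIs, and single values by two-sided exact permutation over mice (scipy 1.17.1). Intervals are exact at 95% (Clopper-Pearson or Poisson), a count of 0 was read as under 3 counts, and both cover counting error only. Each mouse is 1 library, so p-values rest on 2 mice per age.

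The members were named in full. Other pathway genes were named where they passed or were among the highest or lowest 2 of their list, and for likeness the 3 nearest genes, with exceptions said in the text. Some genes that this rule names are not reported here. Members and lists were chosen with earlier results of these data known. On simulated counts with 200 genes changed 4-fold, the edgeR test recovered 77% of them among 5545 genes in Myeloid cells (9.41% of calls false), 70% of them among 5649 genes in DC (3.45% false), and 66% among 6427 genes for the difference between the classes (5.71% false). Changes smaller than 4-fold, as fitted for every member tested in Myeloid cells, were not simulated. Alternatives covered the tool, filters, clustering, cell calling, thinning and each mouse left out.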

Additional observations from a re-analysis of the deposited data

Results flagged for a closer look

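The change of C1qa with age differed between Myeloid cells and DC by -4.26 on the log2 scale (Myeloid minus DC, SE 0.64, adjusted p = 0.0116 with edgeR's quasi-likelihood test), which was marked because the test was of the difference itself. C1qa was at 3589, 1766, 2513 and 3190 CPM in Myeloid cells of mouse 4, 5, 6 and 7 and at 0, 2.81, 41.4 and 100 CPM in DC. DESeq2 gave -4.61 with an adjusted p of 0.346. In mouse 6, EC held 32.2 CPM of C1qa and all cells outside the Myeloid class together 55.8 CPM. EC of mouse 4, 5 and 7 had no C1qa UMI, which in mouse 7 allowed 37.4 CPM. In DC of mouse 7, 1 cell held 20 of the 21 UMIs. The part of such cells and of free RNA in the difference was not tested.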

How the results depend on the processing

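The 17 genes called between the ages in Myeloid cells became 86 with DESeq2, 310 with no filter on low counts, 6 with a limit of 60000 UMIs, 10 with under 10% mitochondrial UMIs, 9 with no integration, 34 with Myeloid cells called cell by cell, 28 with equal cell numbers and, in alternatives added after seeing the data, 2 in Spp1-led cells alone, and ran from 10 to 520 with 1 mouse left out. With 1 mouse left out the calls ran from 75 to 286 in DC, 360 to 1592 in EC, 0 to 236 in Lymphoid and 139 to 979 in mural cells (the lone mouse of an age was assumed to vary like the others), and DESeq2 gave 255 in EC, 17 in Lymphoid, 569 in mural and 96 in OL-like cells and 14 in place of 30 for Myeloid against DC. No member was called in Myeloid cells by DESeq2. Over all 17 alternatives of the age test there, Tmem119 and P2ry12 passed in 2 each and C1qb, C1qc and C3 in 1 each. Cx3cr1, Csf1r and C1qa passed in none. These alternatives include those with 1 mouse left out, which leave 1 mouse at an age.

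Log2 changes with age in Myeloid cells turned in several settings. With 1 mouse left out, P2ry12 ran from -1.94 to 0.027 (the latter without mouse 4), Cx3cr1 from -0.83 to 0.016 (without mouse 4), C1qa from -0.23 (without mouse 5) to 0.77 and C3 from -1.45 (without mouse 6, and -0.41 without mouse 5) to 0.86. P2ry12 was 0.15 with cells called one by one and Csf1r 0.077 in Spp1-led cells alone. C1qa and C3 were -0.023 and -0.083 with under 10% mitochondrial UMIs and -0.011 and -0.11 with no integration, C3 was -0.087 with 60000 UMIs, and C1qa -0.29 with S100a9-led cells left out (added after seeing the data). In OL-like cells, with 1 mouse left out, Sall1 ran from -0.90 to 0.030, Csf1r from -3.96 to 0.26, C1qa from -0.49 to 5.03 and C1qb from -0.68 to 9.93, turning without mouse 7 for Csf1r and without mouse 6 for the others. The age difference in the share of Myeloid cells with a UMI, with 1 mouse left out, ran from -0.13 (without mouse 7) to 9.58 percentage points as the median over members (7.31 with all mice), from -1.82 to 10.5 for Csf1r, -0.92 to 23.1 for C1qa, -0.13 to 20.8 for C1qc and -7.65 to 22.3 for C3, and was -1.55 for Csf1r at 1000 UMIs. Outside the Myeloid class C1qb made 45.7% and C1qc 19.9% of C1q UMIs. The cause of these moves was not tested. Of the other values, 349 of single members and 55 of whole comparisons kept direction and side of the threshold. An alternative with microglia-like cells alone was not run, since no subcluster was named microglia-like (the Retnla-led one, with 4 raised microglia genes, had no cells at P70). No paired analysis was possible because the mice of both ages are different animals and nothing in the labels ties one to another. Sall1 in Myeloid cells is limited by depth, with 13 UMIs in all.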
